A study of Mus musculus with 120 samples.

Results

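Potassium channel subunits were followed as a gene group in mouse cortex, thalamus and hypothalamus after viral delivery of 2 transcriptional regulators and in a sleep mutant. Members were genes whose symbol is Kcn followed by letters and digits only, apart from Kcne2, Kcnj13 and Kcnj10, which were set aside by name, and whose mean over the FPKM libraries was at least 0.5. Of 92 matching symbols, 89 were left after the 3 exclusions and 69 passed the minimum, out of 49466 genes in the tables. The members are 35 of 40 pore-forming subunits of the voltage-gated channels and 7 of 10 of their auxiliary subunits. They also include 8 of 12 subunits of calcium- or sodium-activated channels, 10 of 13 inward rectifiers and 9 of 14 tandem-pore leak channels. Just inside the minimum were Kcnk6 (mean 0.506 FPKM), Kcnh4 (0.573) and Kcnj8 (0.583), and just outside were Kcne4 (0.423), Kcnj14 (0.367) and Kcnh8 (0.318).

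The study covers 120 polyA RNA-seq libraries in 30 groups of 4, which the series' design text calls biological replicates. All mice were C57BL/6J and received adeno-associated virus through the retro-orbital route 3 weeks before tissue was taken. In wild-type (WT) mice at ZT12.5, shortly after lights off, the vectors were HDAC4CA, CREB or the control mCherry, and these 36 libraries were deposited as RPKM. In SLP mice, which carry the Sik3E13∆/+ allele, the vectors were HDAC4CA or the control eGFP at ZT12.5 and at ZT0.5, shortly after lights on, and CREB at ZT12.5. WT mice with eGFP at both times complete the 84 libraries deposited as FPKM. Every mouse thus carried a virus and the control groups express a fluorescent protein. The promoter and the cells reached by the vectors, the ages and the sexes are not given in the sources used here, nor is the meaning of CA or of the prefix ABC that the design text puts before the vector names in WT mice. HDAC4 is a class IIa histone deacetylase, CREB is a cAMP-responsive transcription factor, and SIK3 is a kinase whose Sleepy allele is known for increased sleep in mice. The comparisons ask how the vectors alter transcripts in WT and Sik3E13∆/+ mice, and how Sik3E13∆/+ mice differ from WT mice.

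Potassium channels let potassium leave the cell along its gradient, which pulls the membrane towards rest, ends action potentials and sets firing patterns. Voltage-gated subunits open on depolarisation, and cytosolic partners such as the KChIP and Kvβ proteins alter their gating and traffic. Calcium- and sodium-activated channels follow spikes, inward rectifiers include the G-protein-gated channels that mediate slow inhibition, and tandem-pore channels carry the resting leak. In thalamic relay cells, leak and A-type currents are part of what separates the tonic and burst firing modes of waking and sleep.

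Depth worked out from the smallest step between values was 13.52 to 28.16 M reads per library. Hdac4 was higher with HDAC4CA than with the control vector in thalamus, at 7.36 ± 0.26 against 2.65 ± 0.13 RPKM in WT mice and 9.59 ± 1.55 against 2.57 ± 0.20 FPKM in Sik3E13∆/+ mice at ZT12.5 (SD, n = 4 each). Creb1 with CREB was 12.1 ± 1.81 against 3.84 ± 0.11 RPKM in WT thalamus and 17.1 ± 2.00 against 2.17 ± 0.078 FPKM in Sik3E13∆/+ thalamus, while its rise in WT hypothalamus did not pass the test (log2 difference 0.47, adjusted p = 0.127, limma). Such a transcript count includes the endogenous gene and any vector sequence that aligned to it. Marker genes went with the labelled regions: 5 thalamic markers summed to 157 to 221 FPKM in WT eGFP thalamus and 7.09 to 8.75 FPKM in cortex, and 6 hypothalamic neuropeptide genes to 462 to 627 FPKM in hypothalamus. Within cortex, replicate 4 of the WT mCherry, HDAC4CA and CREB groups stood apart. These had low levels of ribosomal protein transcripts and Gapdh at 5.85 to 6.47 RPKM, against 51.4 to 59.7 RPKM in their other cortex libraries. All RPKM libraries of thalamus and hypothalamus had similarly low levels, with Gapdh at 4.79 to 7.18 RPKM. Among the RPKM libraries, the other cortex libraries are thus the exception. Counts and some named results in WT cortex are therefore also given without replicate 4. Of the 22 named results in WT cortex, 10 lost their call without it, and not all of these are marked below.

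With the control vector eGFP in WT mice, the levels of the 69 subunits differed between the regions. The WT eGFP libraries of both times (n = 8 per region) gave the summed member level as 493 FPKM in thalamus, 336 in hypothalamus and 473 in cortex. The highest mean was in thalamus for 32 members, in cortex for 23 and in hypothalamus for 14. Levels over 10 FPKM were reached by 18 members in thalamus, 8 in hypothalamus and 20 in cortex, while 16, 14 and 11 lay under 1 FPKM in those regions. Kcnab2, which encodes a Kvβ auxiliary subunit, was at 38.7 ± 6.1 FPKM in thalamus and 34.0 ± 1.8 in cortex, the highest mean of any member in each. The next in thalamus were the fast-spiking channel subunits Kcnc2 (33.9 ± 3.3) and Kcnc1 (23.5 ± 2.9), the axonal Kcna2 (26.2 ± 3.0) and the G-protein-gated rectifier Kcnj9 (21.8 ± 3.0). In cortex high levels were also found for the strong inward rectifier Kcnj4 (25.5 ± 3.0), Kcna2 (18.5 ± 1.4) and Kcnh3 (18.2 ± 2.0), of which the last 2 lay within an SD of each other. In hypothalamus the leak channel Kcnk9 (18.5 ± 2.4) came before Kcnab2 (16.6 ± 1.3), Kcna2 (15.8 ± 1.3) and Kcna6 (15.0 ± 0.9), again neighbours within their spread.

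**Figure D1:**
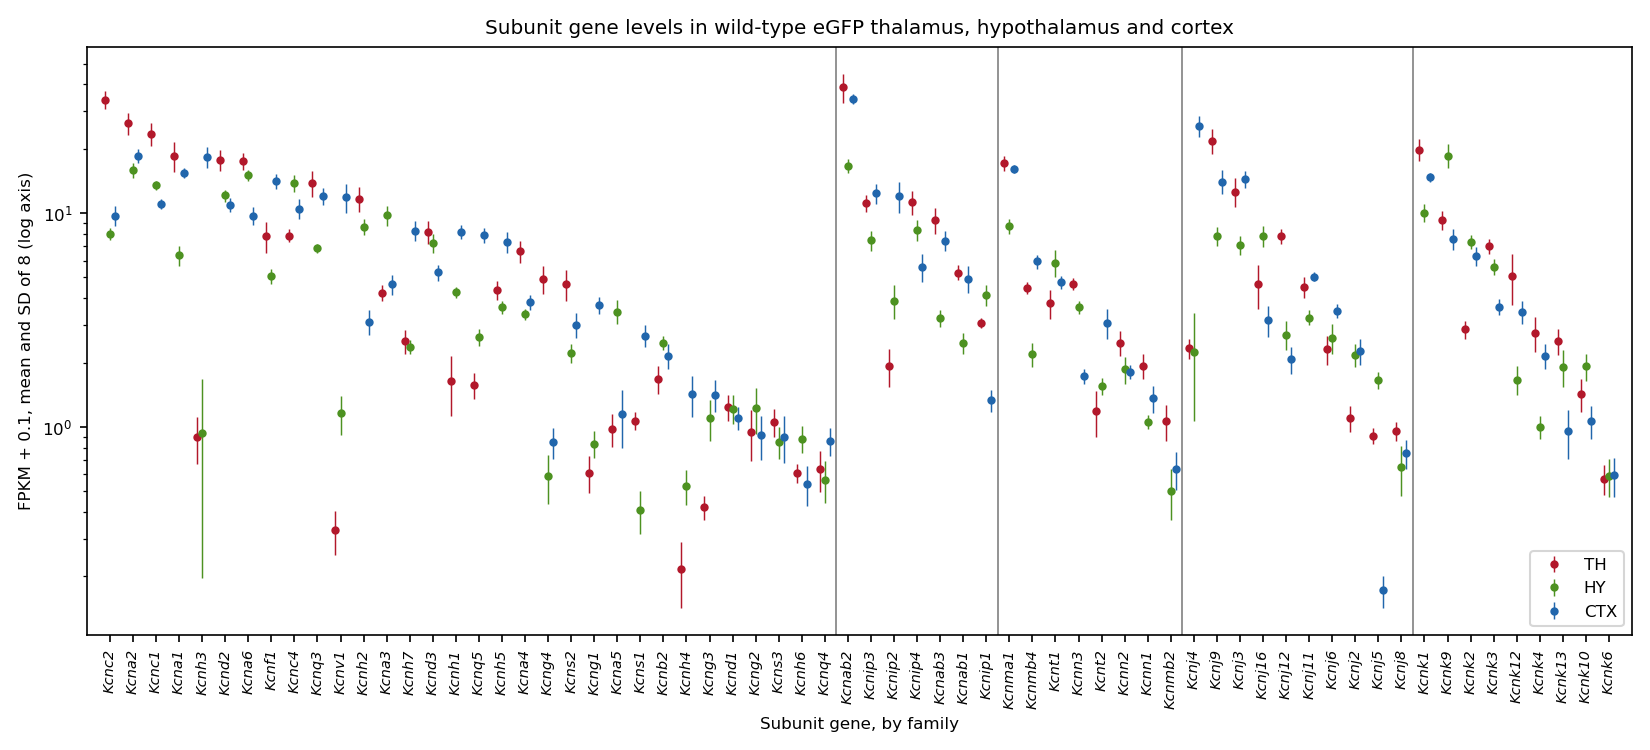
Mean and SD of potassium channel subunits in WT eGFP thalamus (TH), hypothalamus (HY) and cortex (CTX), as FPKM plus 0.1 on a logarithmic axis (n = 8 libraries per region), in blocks of voltage-gated pores, auxiliary subunits, calcium- or sodium-activated channels, inward rectifiers and leak channels. Kcnv1, Kcnh3 and Kcnj4 are high in cortex and low in thalamus and hypothalamus, while Kcnc2 and Kcng4 are highest in thalamus.

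Thalamus differed from cortex in 56 of 69 members (25 higher, 31 lower; limma, adjusted p under 0.05), or 81.2%, where 59.7% of all genes differed (31.3% higher, 28.4% lower). Without rescaling of the libraries the split is 33 higher and 25 lower. The median log2 difference of all genes is then 0.29, against 0.02 with rescaling. Kcnv1, an electrically silent subunit that modifies other voltage-gated channels, was at 0.135 to 0.338 FPKM in thalamus and 10.2 to 15.5 FPKM in cortex, a log2 difference of -5.44 ± 0.09 (SE). Kcnh3 (-4.66), Kcnj4 (-3.74) and the KChIP gene Kcnip2 (-2.92) were likewise cortical. In the other direction, Kcnc2 was at 30.2 to 40.5 FPKM in thalamus and 7.94 to 11.6 FPKM in cortex (1.51 ± 0.05), and the silent subunit Kcng4 differed by 2.27. None of these 6 genes had overlapping ranges between thalamus and cortex, which the rule for naming members required.

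Hypothalamus differed from cortex in 63 of 69 members (14 higher, 49 lower), or 91.3%, against 65.7% of all genes (34.8% higher, 30.9% lower). The split without rescaling is 23 and 38, with a median log2 difference of all genes of 0.42, against 0.03 with rescaling. Kcnj5, a G-protein-gated rectifier subunit, was at 1.23 to 1.69 FPKM in hypothalamus and 0.0448 to 0.125 FPKM in cortex (3.00 ± 0.10), and Kcnk9 differed by 0.88. Thalamus against hypothalamus gave 61 of 69 members (40 higher, 21 lower), or 88.4%, against 57.7% of all genes (28.6% higher, 29.1% lower), with Kcng4 (3.21), Kcnc2 (2.21) and the leak channel Kcnk12 (1.70) among those higher. Neuron markers (6 genes) also differed in both of these comparisons. In hypothalamus against cortex 1 was higher and 5 lower, at a sum of 247 to 322 against 381 to 448 FPKM, and in thalamus against hypothalamus 5 were higher, at 383 to 502 against 247 to 322 FPKM. Between thalamus and cortex, where 81.2% of members differed, the sums of these markers overlapped, at 383 to 502 against 381 to 448 FPKM. The part of neuron markers in the results was not tested. In tissue RNA of this kind, fewer cells of a type and less RNA per cell cannot be told apart.

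More potassium channel transcripts were lower than higher with HDAC4CA in thalamus, in WT mice and in Sik3E13∆/+ mice at both times. In WT thalamus 4 members were higher and 17 lower of 69 tested (30.4%, against 7.20% of all genes, 4.20% higher and 2.99% lower). In Sik3E13∆/+ thalamus 7 were higher and 15 lower of 68 at ZT12.5 (32.4%, against 11.9%, of which 6.60% higher and 5.31% lower), and 5 higher and 15 lower of 68 at ZT0.5 (29.4%, against 8.85%, of which 5.24% higher and 3.62% lower). The median log2 difference of the members was -0.12, -0.09 and -0.13 in those 3 comparisons, where the median over all genes tested was 0.00, 0.01 and -0.01. These comparisons share no library, and 15 members moved the same way in all of them: 4 rose and 11 fell. They make up 71.4% of the 21 WT calls, 68.2% of the 22 ZT12.5 calls and 75.0% of the 20 ZT0.5 calls in Sik3E13∆/+ mice. Over all genes the 590 that moved the same way in all 3 were 49.5%, 29.8% and 40.2% of the calls.

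Kcnk4 encodes TRAAK, a tandem-pore leak channel opened by membrane stretch, and lies on GRCm38 chr19:6923966-6934515 on the minus strand. Its start is of interest because the HDAC4 protein is known to be recruited to DNA by MEF2 factors. The RefSeq promoter windows (GRCm38.p6, 250 bases before to 50 after a gene's start) of 49 of the 69 members, 72 windows in all, were searched on both strands. The pattern was a loose form of the MEF2 core, CTA and TAG with any 4 bases between them. It occurred in 2 of the windows (2.78%), those of Kcnk4 and Kcnj9, against 3.69% of all 32851 windows. The middle bases, GAAC in Kcnk4 and AAAA in Kcnj9, were left free, so a match need not be a MEF2 site. Both are shown because these genes moved in opposite directions in thalamus; the capitals mark the match, which begins 206 bases before the start in Kcnk4 (chr19:6934466-6934765, minus strand) and 118 bases before it in Kcnj9 (chr1:172329273-172329572, minus strand).
Kcnk4: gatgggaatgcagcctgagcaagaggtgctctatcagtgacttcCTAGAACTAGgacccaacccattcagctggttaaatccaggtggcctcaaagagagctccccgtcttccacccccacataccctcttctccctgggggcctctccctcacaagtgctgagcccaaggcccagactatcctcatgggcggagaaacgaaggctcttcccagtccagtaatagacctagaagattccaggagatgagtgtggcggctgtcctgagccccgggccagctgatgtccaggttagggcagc
Kcnj9: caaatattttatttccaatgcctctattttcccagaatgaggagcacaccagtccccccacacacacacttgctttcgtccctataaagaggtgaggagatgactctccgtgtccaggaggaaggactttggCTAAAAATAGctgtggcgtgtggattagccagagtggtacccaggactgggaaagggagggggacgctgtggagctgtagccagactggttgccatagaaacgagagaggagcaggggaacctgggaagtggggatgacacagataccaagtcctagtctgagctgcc

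Kcnk4 had the greatest rise of any member in each of the 3 thalamic comparisons. It was at 4.56, 4.28, 5.87 and 5.14 RPKM with HDAC4CA in WT thalamus, against 2.31, 2.21, 2.22 and 2.36 RPKM with mCherry. In Sik3E13∆/+ thalamus at ZT12.5 it was at 6.38, 6.11, 7.45 and 8.29 FPKM with HDAC4CA, against 3.03, 2.23, 2.496 and 3.46 FPKM with eGFP. At ZT0.5 it was at 5.75, 5.78, 7.85 and 5.48 FPKM with HDAC4CA, against 2.29, 2.28, 2.24 and 2.43 FPKM with eGFP. Every HDAC4CA library lay above every control library. The log2 difference was 1.15 ± 0.10 in WT mice, 1.34 ± 0.14 in Sik3E13∆/+ mice at ZT12.5 and 1.45 ± 0.11 at ZT0.5 (SE; adjusted p = 9.8e-05, 0.000418 and 0.0001, limma). Kcnk4 shares 587 of its 4465 exon bases, or 13.1%, with Catsperz on the same strand, listed in the tables as Tex40, so reads there cannot be assigned to either gene. Tex40 rose as well, at 5.34 against 2.10 RPKM in WT mice and 6.99 against 2.37 and 7.33 against 2.41 FPKM in Sik3E13∆/+ mice at ZT12.5 and ZT0.5.

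Voltage-gated pore genes rose in all 3 comparisons as well. Kcnc2, a channel subunit of fast-spiking cells, averaged 56.2 RPKM with HDAC4CA and 44.9 RPKM with mCherry in WT thalamus, and rose by 0.39, 0.52 and 0.44. Kcnh2, which encodes the ERG channel, was at 14.3 to 15.5 RPKM with HDAC4CA and 9.96 to 12.5 RPKM with mCherry, and rose by 0.44, 0.63 and 0.54. Kcnj12, a strong inward rectifier, rose in Sik3E13∆/+ thalamus at both times (0.37 and 0.36).

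**Figure D2:**
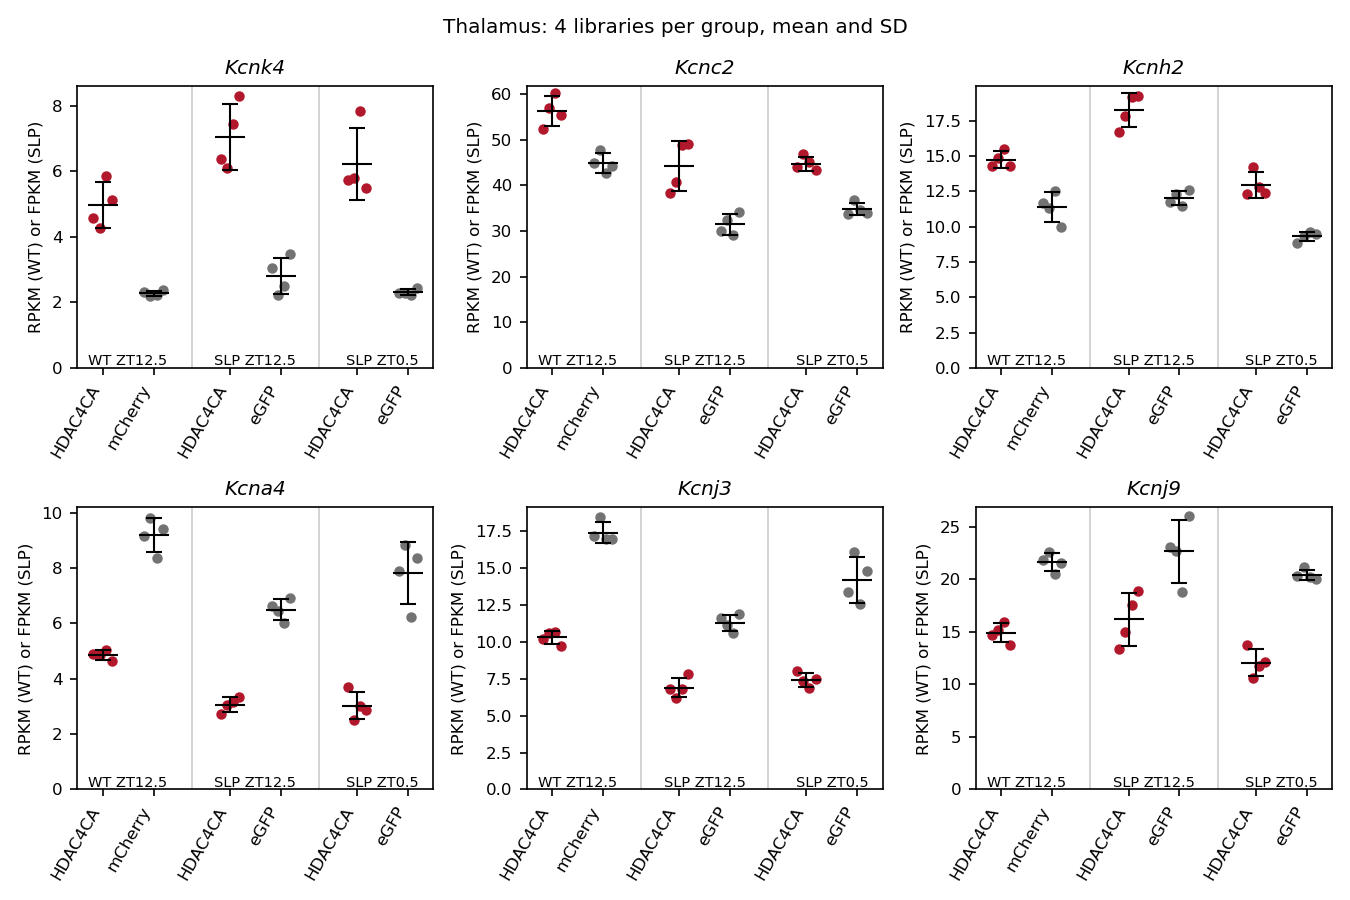
Level of members in each thalamus library with HDAC4CA and with its control vector, in WT mice (RPKM) and Sik3E13∆/+ mice (SLP, FPKM) (points, 4 libraries per group; bars, mean and SD). Kcnk4 lies higher in every HDAC4CA library than in any control library of the same comparison, and Kcna4 and Kcnj3 are separated the other way.

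Kcna4, an inactivating voltage-gated subunit, was at 4.88, 4.84, 5.05 and 4.62 RPKM with HDAC4CA in WT thalamus, against 9.16, 9.82, 8.37 and 9.41 RPKM with mCherry. In Sik3E13∆/+ thalamus it was at 2.71 to 3.35 FPKM with HDAC4CA against 6.00 to 6.91 FPKM with eGFP at ZT12.5, and at 2.51 to 3.68 against 6.24 to 8.81 FPKM at ZT0.5. No HDAC4CA library reached a control value, and the log2 differences were -0.84, -1.03 and -1.27. Kcnd2 (-0.27, -0.30 and -0.37), the other A-type pore gene among the 11, and Kcnip4 (-0.56, -0.54 and -0.53), a KChIP partner of such channels, also fell in all 3 comparisons.

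Kcnj3, which encodes the GIRK1 subunit of G-protein-gated channels, was at 10.2, 10.6, 10.7 and 9.71 RPKM with HDAC4CA in WT thalamus, against 17.2, 18.5, 17.0 and 17.0 RPKM with mCherry. The groups were separate in all 3 comparisons, with log2 differences of -0.68, -0.67 and -0.85. Kcnj9, the GIRK3 gene whose promoter is printed above, was at 13.8 to 15.9 RPKM with HDAC4CA against 20.5 to 22.6 RPKM with mCherry, and fell by 0.47, 0.45 and 0.68. At ZT12.5 in Sik3E13∆/+ mice its groups touched, at 13.3 to 18.9 against 18.8 to 26.1 FPKM. Kcnj5, another G-protein-gated subunit, was higher in Sik3E13∆/+ thalamus at ZT12.5, at 0.982 to 1.40 FPKM with HDAC4CA against 0.679 to 1.01 FPKM with eGFP, overlapping ranges with a log2 difference of 0.58 (adjusted p = 0.0364, limma). Kcnj3 shares 31.1% of its exon bases with Gm26794 on the opposite strand, which differed by -0.60, -0.68 and -0.83, and the strand setting of the counting is not given in the sources used here.

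The silent subunit Kcns1 had the lowest log2 difference of any member in all 3 thalamic comparisons. It was at 0.241, 0.204, 0.388 and 0.406 RPKM with HDAC4CA in WT thalamus, against 0.982, 1.03, 1.24 and 1.08 RPKM with mCherry. Its differences were -1.50, -1.14 and -1.61, at levels near the lowest among the members tested. Kcnmb4, the auxiliary subunit of neuronal BK channels, was at 2.45 to 2.77 RPKM with HDAC4CA against 4.02 to 4.60 RPKM with mCherry and fell by 0.61, 0.77 and 0.86. It shares 20.8% of its exon bases with the opposite-strand transcript Kcnmb4os2, which differed by -0.53, -0.74 and -0.84. The leak channel Kcnk3 (TASK-1), the Kvβ gene Kcnab1, the EAG gene Kcnh5 and the M-current gene Kcnq3 complete the members that fell in all 3, by 0.23 to 0.60.

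By class, the voltage-gated pores gave 3 higher and 9 lower of 35 in WT thalamus, 4 and 6 of 34 in Sik3E13∆/+ mice at ZT12.5, and 3 and 6 of 34 at ZT0.5. Auxiliary subunits gave 0 higher in any of these comparisons and 2, 2 and 3 lower of 7. Calcium- and sodium-activated channels gave 0 higher and 1, 3 and 2 lower of 8, with Kcnt2 and the SK channel Kcnn3 lower at ZT12.5. Inward rectifiers split, with 0, 2 and 1 higher and 3, 2 and 3 lower of 10. The leak channels gave Kcnk4 alone as higher, and 2, 2 and 1 lower of 9. Over all genes 7.20%, 11.9% and 8.85% were called in the 3 comparisons. Of the 68 members tested in all 3, 30 passed the test at least once and none passed in both directions. Over all genes 2912 of 15949 passed at least once and only 3 in both directions, so the lack of such cases is not particular to the members.

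Markers of other cells moved in some of these comparisons. In Sik3E13∆/+ thalamus at ZT12.5, 7 of 7 choroid plexus genes were lower with HDAC4CA, at a sum of 8.18 to 14.4 against 571 to 1651 FPKM, and 5 of 5 blood genes, at 43.2 to 97.1 against 95.5 to 193 FPKM. In WT thalamus and in Sik3E13∆/+ thalamus at ZT0.5, 0 of the 7 choroid plexus genes passed the test, at 6.87 to 1558 against 29.0 to 1766 RPKM and 9.50 to 1035 against 12.5 to 1281 FPKM; 0 and 2 blood genes passed, the 2 being lower. Of 6 neuron markers, 2, 4 and 5 were higher with HDAC4CA and none lower, with sums of 569 to 632 against 521 to 550 RPKM in WT mice, 459 to 579 against 397 to 428 FPKM at ZT12.5 and 477 to 513 against 405 to 435 FPKM at ZT0.5. Of 6 oligodendrocyte markers, 2 were lower at ZT0.5. Thalamic markers summed to 229 to 274 RPKM with HDAC4CA and 238 to 250 RPKM with mCherry in WT mice. The part of these markers in the result was not tested.

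**Figure D3:**
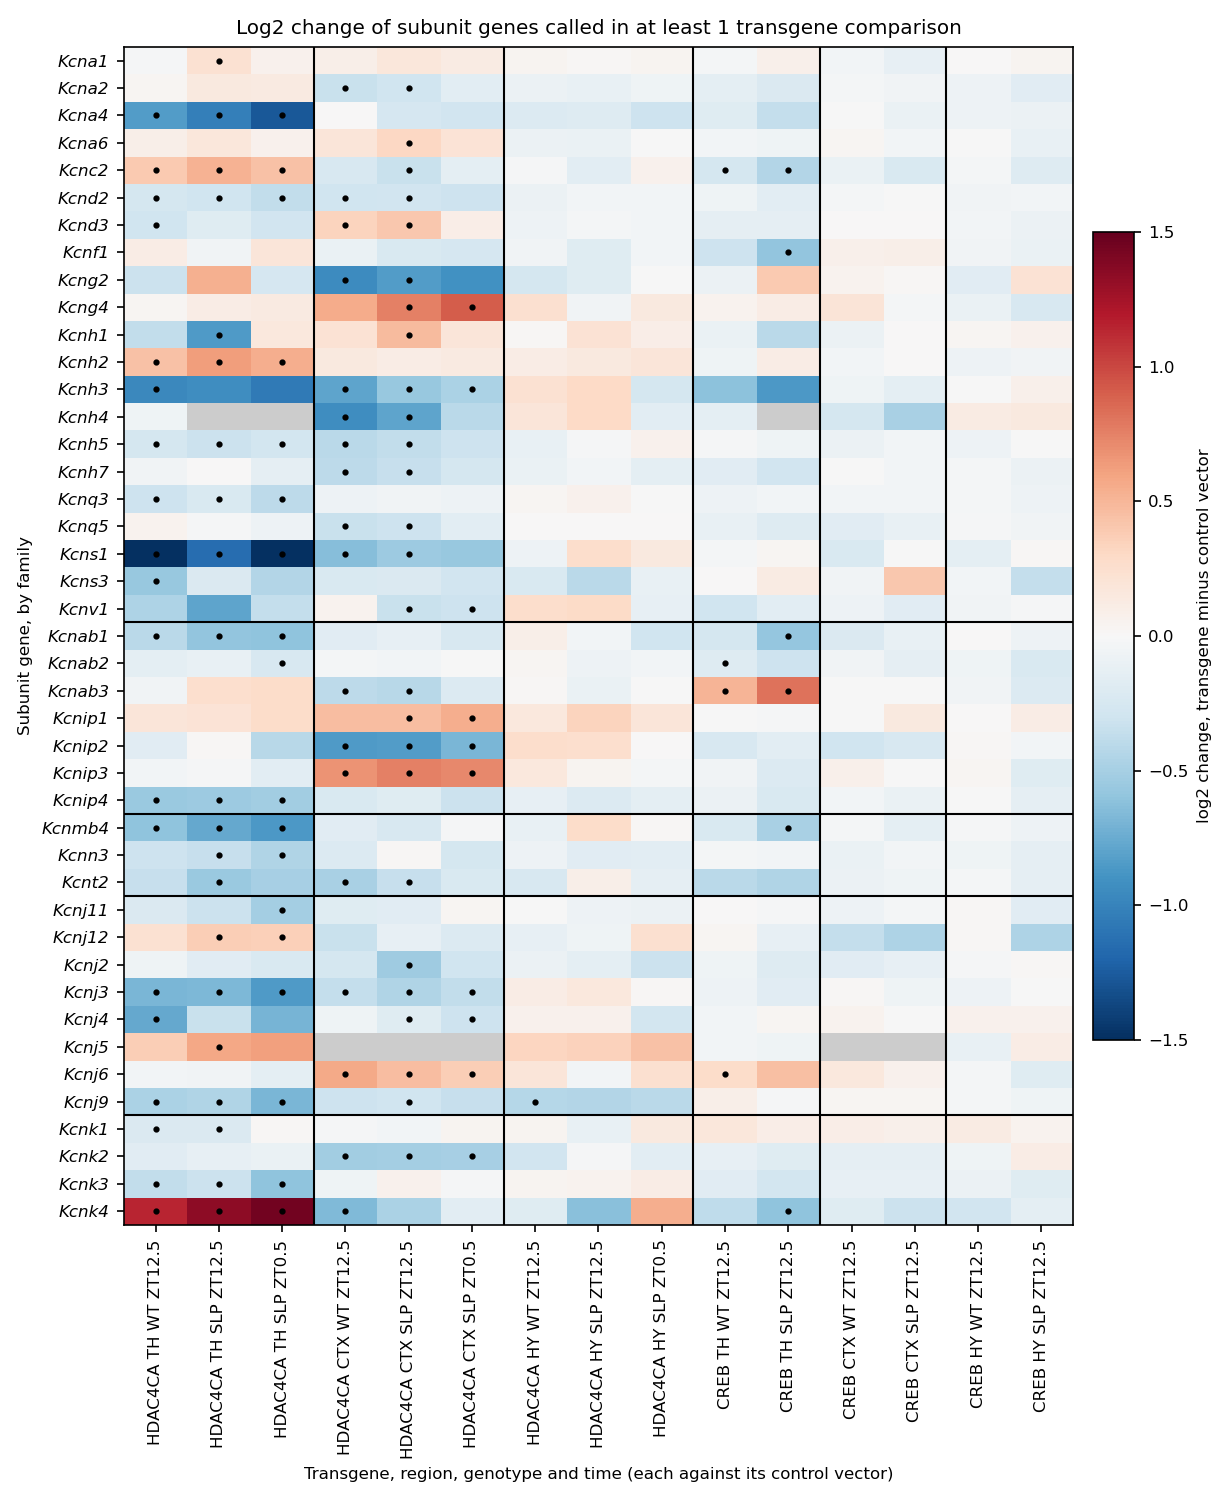
Log2 difference from the control vector for the members shown, which passed the test in at least 1 comparison with HDAC4CA or CREB, by region, genotype and time (limma on log2 of the value plus 0.1; dots mark adjusted p under 0.05, grey cells were not tested and colours end at 1.5 in either direction). HDAC4CA columns for thalamus and cortex hold most of the dots, and Kcnk4 runs to 1.45 in thalamus.

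In cortex, too, more members were lower than higher with HDAC4CA, with other genes in front. WT cortex gave 4 higher and 15 lower of 68 (27.9%, against 6.50% of all genes, 3.24% higher and 3.27% lower). Sik3E13∆/+ cortex gave 8 higher and 19 lower at ZT12.5 (39.7%, against 10.9%, of which 5.82% higher and 5.12% lower) and 5 higher and 6 lower at ZT0.5 (16.2%, against 4.32%, of which 2.45% higher and 1.88% lower). The WT count of 19 is 10 without the libraries that stood apart (replicate 4 of mCherry and of HDAC4CA) and 9 without mCherry replicate 2. The ZT0.5 count of 11 is 24 with voom, the limma method for counts, on the reads recovered from the values (6 higher, 18 lower), 4 with no filter on low values, and 7 without HDAC4CA replicate 2. Members moving the same way in all 3 numbered 7, or 36.8%, 25.9% and 63.6% of the calls, where the shares over all genes were 30.7%, 17.7% and 46.2%. Median log2 differences of the members were -0.15, -0.13 and -0.16, against -0.01, -0.01 and 0.00 over all genes.

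Kcnip3 and Kcnj6 rose throughout. Kcnip3 encodes KChIP3, a calcium-binding partner of A-type channels also known as the transcriptional repressor DREAM. It was at 23.3, 19.4, 20.4 and 21.1 FPKM with HDAC4CA in Sik3E13∆/+ cortex at ZT12.5, against 12.3, 12.4, 11.8 and 12.9 FPKM with eGFP. The groups were apart there and at ZT0.5, with log2 differences of 0.76 and 0.72. In WT cortex it was at 16.1, 18.8, 22.8 and 30.4 RPKM with HDAC4CA, against 13.5, 13.2, 13.0 and 16.3 RPKM with mCherry. These groups overlapped, the difference was 0.68 (adjusted p = 0.0287, limma), and without the libraries that stood apart it was 0.61 (adjusted p = 0.0551).

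Kcnj6, the GIRK2 gene, rose by 0.57, 0.46 and 0.36 on the log2 scale, and its groups overlapped in WT mice and at ZT0.5. Kcng4 rose in Sik3E13∆/+ cortex at both times (0.76 and 0.90), at 1.37 to 1.94 FPKM with HDAC4CA against 0.596 to 0.988 FPKM with eGFP at ZT0.5.

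The 4 that fell throughout were Kcnip2, Kcnh3, Kcnk2 and Kcnj3. Kcnip2 was at 7.16, 6.55, 5.11 and 6.84 FPKM with HDAC4CA in Sik3E13∆/+ cortex at ZT12.5, against 12.0, 10.5, 10.7 and 12.5 FPKM with eGFP. The groups were apart in all 3 comparisons, and the log2 differences were -0.84 in WT mice, -0.83 at ZT12.5 and -0.69 at ZT0.5. The WT call did not hold with the replicate number as a block (adjusted p = 0.0528) or without the libraries that stood apart (0.142). Kcnh3 was at 11.8, 9.73, 11.2 and 11.9 RPKM with HDAC4CA in WT cortex, against 19.7, 19.3, 18.6 and 23.4 RPKM with mCherry, again apart in every comparison, and fell by 0.79, 0.57 and 0.48. Kcnk2, the stretch-sensitive leak channel TREK-1, was at 5.05 to 7.21 RPKM with HDAC4CA against 8.27 to 9.80 RPKM with mCherry and fell by 0.53, 0.51 and 0.50. Kcnj3 fell by 0.35, 0.46 and 0.37.

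**Figure D4:**
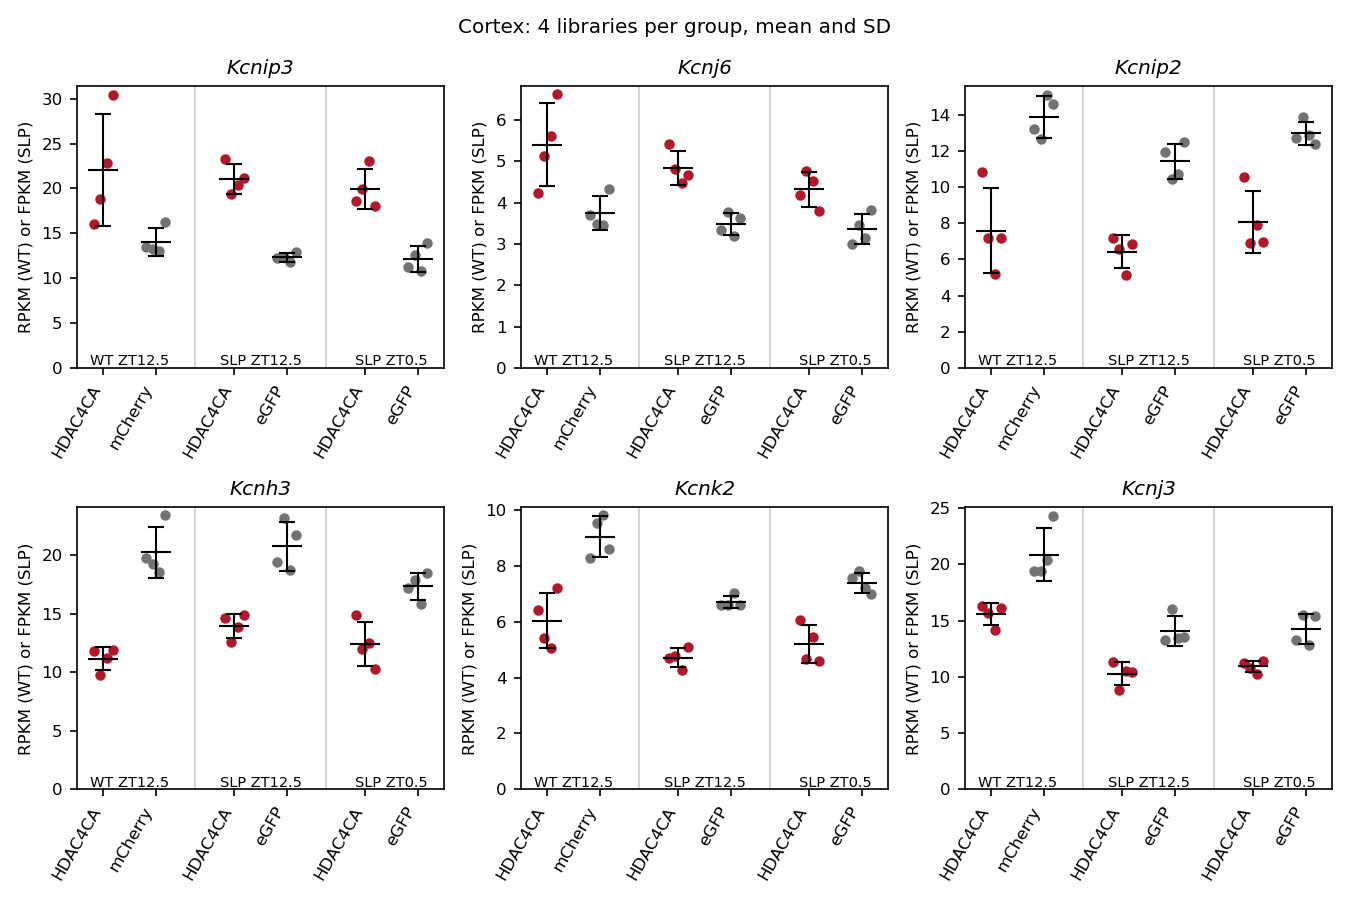
Level of members in each cortex library with HDAC4CA and with its control vector, in WT mice (RPKM) and Sik3E13∆/+ mice (SLP, FPKM) (points, 4 libraries per group; bars, mean and SD). Kcnip2, Kcnh3 and Kcnk2 lie lower in every HDAC4CA library than in any control library of the same comparison, and Kcnip3 overlaps in WT mice.

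Further members fell in cortex in WT mice and in Sik3E13∆/+ mice at ZT12.5 but did not pass at ZT0.5, among them Kcng2 (-0.94 and -0.84), Kcnh4 (-0.93 and -0.79), Kcns1 (-0.64 and -0.54) and Kcna2 (-0.33 and -0.30). Kcnk4 in WT cortex was at 1.35 to 1.89 RPKM with HDAC4CA against 2.41 to 3.30 RPKM with mCherry, a difference of -0.66 (adjusted p = 0.0196) that did not hold with the replicate block (0.0510) or without the libraries that stood apart (0.103). It was not called in Sik3E13∆/+ cortex (-0.48 and -0.16). Gfap, an astrocyte marker that rises in reactive astrocytes, was higher with HDAC4CA in cortex, by 1.21 in WT mice and 1.70 in Sik3E13∆/+ mice at ZT12.5. It is 1 of 6 astrocyte markers listed, and it does not stand for the list. The others and its value at ZT0.5 are not reported here. Of 6 neuron markers, 0, 2 and 0 were lower in the 3 cortical comparisons. At ZT0.5, 4 of 5 blood markers were lower, at 33.7 to 49.9 against 61.4 to 97.1 FPKM. The part of these markers in the result was not tested.

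The difference between the regions was itself tested in Sik3E13∆/+ mice at ZT12.5, as the HDAC4CA effect in thalamus minus that in cortex. It passed for 17 of 69 members (9 positive, 8 negative), or 24.6%, against 9.10% of all genes (4.98% positive, 4.12% negative). Kcnk4 had the greatest difference, 1.83 ± 0.25 on the log2 scale, from an effect of 1.34 in thalamus and -0.48 in cortex. Positive differences were also found for Kcnc2 (0.86), Kcnab3 (0.67), Kcnh2 (0.53) and Kcnj12 (0.51). Kcnh1, an EAG channel gene, had a difference of -1.30 ± 0.27, being at 0.667 to 1.34 FPKM with HDAC4CA against 1.13 to 2.32 FPKM with eGFP in thalamus, and 9.999 to 13.9 against 7.66 to 8.68 FPKM in cortex. Kcnip3 and Kcna4 each had -0.77.

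**Figure D5:**
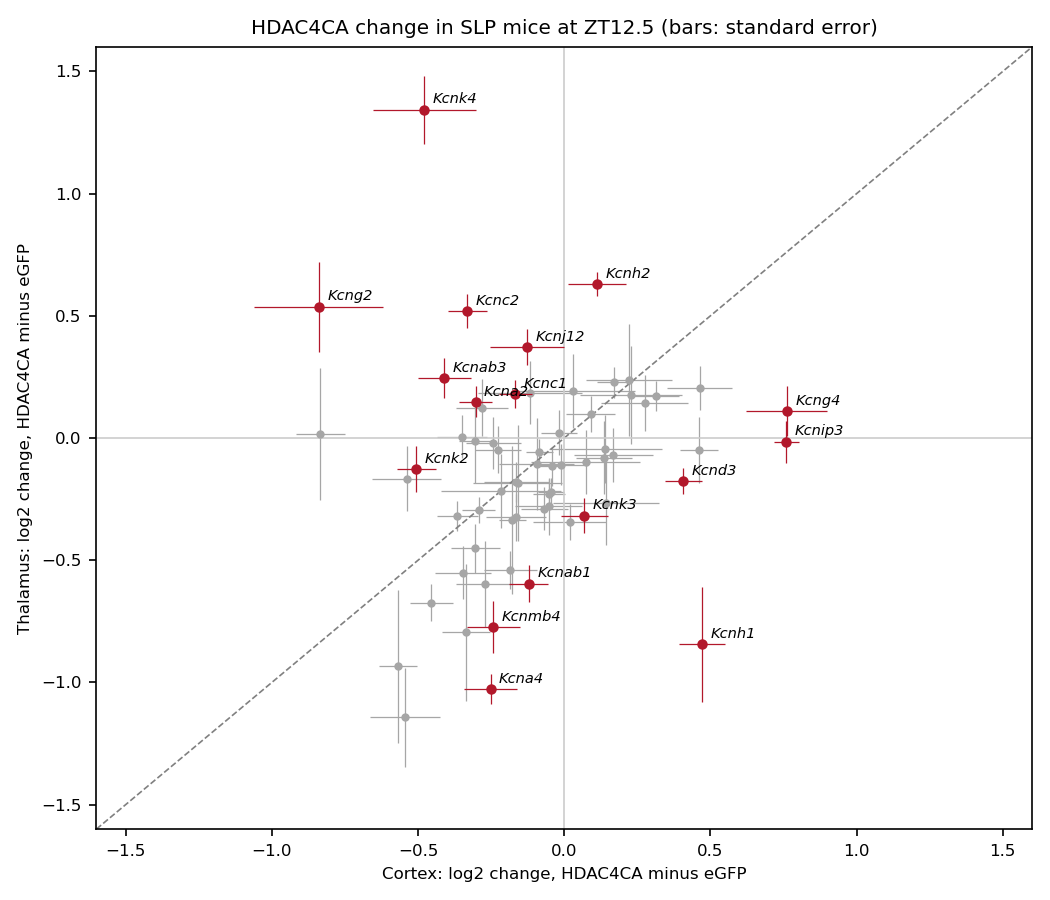
HDAC4CA effect on potassium channel subunits in Sik3E13∆/+ mice at ZT12.5, with the log2 difference in thalamus on the vertical axis and that in cortex on the horizontal axis (bars, SE; dashed line, equal effects). Members past the test of the difference between regions are red and named, with Kcnk4 at 1.34 in thalamus and -0.48 in cortex and Kcnh1 at -0.84 and 0.47.

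In hypothalamus HDAC4CA changed 1 of 69 members in WT mice (1.45%, against 0.152% of all genes). This was Kcnj9, at 7.02, 6.30, 5.64 and 5.82 RPKM with HDAC4CA against 8.66, 8.55, 9.18 and 8.27 RPKM with mCherry, with no overlap. Its log2 difference was -0.43 ± 0.06 (adjusted p = 0.0248, limma), and the call was lost when any of 7 of the 8 libraries was left out. In Sik3E13∆/+ hypothalamus limma called 0 members at either time, against 0.0691% and 0.0175% of all genes, where 12 and 14 had an unadjusted p under 0.05 and voom on recovered reads called 1 each. Kcnj9 there was at -0.44 (adjusted p = 0.216) at ZT12.5 and -0.40 (adjusted p = 0.252) at ZT0.5. Hdac4 itself was higher in hypothalamus by 0.79, 1.03 and 1.15 on the log2 scale in the 3 comparisons, and in cortex by 0.84, 0.87 and 0.76.

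Over the 9 comparisons of HDAC4CA with a control vector, Kcnj3 fell in 6. Kcnd2, Kcnh5, Kcnj9 and Kcns1 fell in 5 each and Kcnh3 in 4.

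CREB changed few members, all in thalamus. WT thalamus gave 2 higher and 3 lower of 69 (7.25%, against 3.41% of all genes, 2.31% higher and 1.10% lower), and Sik3E13∆/+ thalamus 1 higher and 5 lower of 68 (8.82%, against 4.39%, of which 2.95% higher and 1.44% lower). The WT count is 1 when any 1 of mCherry replicates 1, 2 and 4 or CREB replicates 2 and 3 is left out, 2 without CREB replicate 4, and 13 with voom. The Sik3E13∆/+ count is 15 with voom (3 higher, 12 lower), and without rescaling the split is 3 higher and 5 lower. Kcnab3, a Kvβ subunit gene, was at 15.4, 17.6, 16.9 and 15.5 RPKM with CREB in WT thalamus, against 11.9, 11.7, 12.2 and 10.7 RPKM with mCherry. In Sik3E13∆/+ thalamus it was at 19.7, 17.7, 16.5 and 20.2 FPKM with CREB, against 8.81, 9.22, 10.1 and 11.6 FPKM with eGFP. The groups were apart in both, and the log2 differences were 0.51 ± 0.05 and 0.82 ± 0.11 (adjusted p = 0.00149 and 0.00467, limma). The gene shares 147 bases, 5.1% of its exon length, with the opposite-strand transcript Kcnab3os, which differed by 0.64 and 0.74. Kcnab3 was not called in cortex (-0.01 and -0.01) or hypothalamus (-0.05 and -0.21).

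Kcnc2 fell with CREB in thalamus. It was at 39.4, 34.4, 38.2 and 35.8 RPKM with CREB in WT mice against 45.0, 47.7, 42.6 and 44.3 RPKM with mCherry, and at 21.9, 28.5, 24.9 and 23.0 FPKM with CREB in Sik3E13∆/+ mice against 30.0, 32.4, 29.1 and 34.2 FPKM with eGFP. The groups were apart, with log2 differences of -0.26 (adjusted p = 0.0304) and -0.44 (adjusted p = 0.0114). Kcnj6 (0.27) and Kcnab2 (-0.19) were also called in WT mice, and the remaining Sik3E13∆/+ calls were Kcnk4 (-0.60), the silent subunit Kcnf1 (-0.59), Kcnab1 (-0.58) and Kcnmb4 (-0.49). Choroid plexus markers gave 0 calls, at 264 to 1304 against 29.0 to 1766 RPKM in WT mice and 19.0 to 1040 against 571 to 1651 FPKM in Sik3E13∆/+ mice.

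In cortex and hypothalamus limma called 0 members with CREB. The shares of all genes called were 0.0621% and 0.00% in WT cortex and hypothalamus, and 0.0674% and 0.00574% in Sik3E13∆/+ cortex and hypothalamus. There 11, 2, 11 and 5 members had an unadjusted p under 0.05, and voom called 0 in each. The 95% confidence interval of the log2 difference lay within 0.5 of zero for 65 of 68 members in WT cortex and 58 of 68 in Sik3E13∆/+ cortex.

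CREB is known to bind TGACGTCA and its shorter form TGACG. The full motif was found in none of the 72 member windows and in 1.79% of all windows on either strand. The short form, which the full motif contains, was found in 12 member windows (16.67%) and in 20.81% of all. Of the members called with CREB in WT thalamus, Kcnj6, which rose, and Kcnab2, which fell, hold the short form. Kcnab3, which rose in both genotypes, has no window among those searched, so its promoter was not examined for either form. The window of Kcnj6 is shown, with the short form in capitals. It lies 38 bases after the gene's start in 1 of its 2 windows, chr16:94997647-94997946, minus strand.
Kcnj6: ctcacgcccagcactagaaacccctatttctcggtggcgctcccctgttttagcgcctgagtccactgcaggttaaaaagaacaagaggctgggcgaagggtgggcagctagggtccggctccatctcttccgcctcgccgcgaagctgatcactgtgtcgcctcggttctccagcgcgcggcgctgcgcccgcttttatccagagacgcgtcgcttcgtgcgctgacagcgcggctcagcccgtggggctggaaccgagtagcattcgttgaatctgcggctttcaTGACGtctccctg

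HDAC4CA and CREB were also set directly against each other at ZT12.5, with the same libraries as above. In WT thalamus 8 of 68 members were higher with HDAC4CA than with CREB and 16 lower, against 6.94% and 5.69% of all genes. In Sik3E13∆/+ thalamus 11 of 68 were higher and 13 lower, against 8.04% and 6.27%. Without rescaling these splits are 6 higher and 21 lower in WT thalamus and 6 and 15 in Sik3E13∆/+ thalamus. Kcnk4 was higher with HDAC4CA than with CREB by 1.53 and 1.95 and Kcnc2 by 0.66 and 0.96. Kcna4 was lower with HDAC4CA by 0.65 and 0.66 and Kcnab3 by 0.56 and 0.57. In WT cortex 4 of 68 were higher and 13 lower, against 3.17% and 2.79%, and in Sik3E13∆/+ cortex 9 were higher and 14 lower, against 5.38% and 4.67%. There Kcnip3 was higher with HDAC4CA by 0.62 and 0.77, and the leak channel Kcnk12 was lower by 0.54 and 0.58. The WT cortex total of 17 is 5 without CREB replicate 3, 7 without the libraries that stood apart, and 8 without rescaling (1 higher, 7 lower).

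No member passed the test by limma between Sik3E13∆/+ mice with eGFP and WT mice with eGFP, in any region at either time. The shares of all genes called were 0.00% in every region at ZT12.5 and in cortex and hypothalamus at ZT0.5, and 0.0359% in thalamus at ZT0.5. An unadjusted p under 0.05 was reached by 3, 15 and 6 members in thalamus, hypothalamus and cortex at ZT12.5 and by 6, 6 and 4 at ZT0.5, and voom called 0 in each. The 95% confidence interval of the log2 difference lay within 0.5 of zero for 55 of 68 members in thalamus, 54 of 69 in hypothalamus and 59 of 68 in cortex at ZT12.5, and the intervals of the rest reached further. Sik3, whose gene-level value does not show whether its exon is present, was at 12.4 ± 0.67 FPKM in Sik3E13∆/+ thalamus and 13.6 ± 0.44 FPKM in WT thalamus at ZT12.5 (SD, n = 4 each). The greatest difference in thalamus at ZT12.5 was that of Kcnh1, at 0.62 (adjusted p = 0.502).

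Members differed by time of day in thalamus in both genotypes and, in Sik3E13∆/+ mice, in cortex. In WT eGFP thalamus, 19 members were higher at ZT12.5 than at ZT0.5 and 3 lower of 68 (32.4%, against 25.8% of all genes, 15.9% higher and 9.89% lower). In Sik3E13∆/+ eGFP thalamus 9 were higher and 3 lower (17.6%, against 21.2%, of which 11.3% higher and 9.94% lower). Both shares of members are near those of all genes. Without rescaling the splits are 8 higher and 3 lower in WT mice, and 6 higher and 7 lower in Sik3E13∆/+ mice. The WT total is 14 without replicate 3 at ZT12.5 or replicate 4 at ZT0.5. Kcnk12, which encodes the leak channel subunit THIK-2, was at 5.93, 5.55, 6.96 and 6.35 FPKM at ZT12.5 in WT thalamus, against 3.89, 3.82, 3.39 and 3.97 FPKM at ZT0.5. The times did not overlap, and the log2 difference was 0.78 (adjusted p = 0.00111), while in Sik3E13∆/+ mice it was 0.48 with overlapping ranges.

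Kcnj16, a rectifier subunit found in astrocytes, was at 3.54, 3.30, 3.68 and 3.97 FPKM at ZT12.5 in WT thalamus, against 5.68, 4.69, 6.24 and 5.26 FPKM at ZT0.5. It was lower at ZT12.5 in both genotypes, with log2 differences of -0.49 and -0.31 and no overlap in WT mice. Members higher at ZT12.5 in both genotypes included Kcnab2 (0.48 in WT mice and 0.32 in Sik3E13∆/+ mice), Kcnf1 (0.46 and 0.68), Kcnh2 (0.41 and 0.42), Kcnk1 (0.36 and 0.37) and Kcnc1 (0.36 and 0.24). Blood markers were higher at ZT12.5 for 4 of 5 genes in WT thalamus, at 77.8 to 158 against 60.3 to 86.3 FPKM, and their part in the result was not tested.

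In WT cortex 1 of 68 members passed (1.47%, against 1.51% of all genes): Kcnj4, at 27.7 ± 2.55 FPKM at ZT12.5 and 23.4 ± 1.43 FPKM at ZT0.5 (SD, n = 4 each), a log2 difference of 0.34. In Sik3E13∆/+ cortex 11 members were higher at ZT12.5 and 0 lower (16.2%, against 6.65%, of which 4.70% higher and 1.95% lower), with Kcnn2, an SK channel gene, at 0.50, the KATP pore gene Kcnj11 at 0.47 and Kcnj4 at 0.32. This count is 1 without rescaling, and 3 without replicate 2 at ZT12.5. In hypothalamus limma called 0 members in either genotype, against 0.203% and 0.371% of all genes, where 7 and 10 had an unadjusted p under 0.05 and voom called 0 and 2.

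Genes that act with these channels were also examined, as a list of 22 partners such as the HCN pacemaker channels, the KATP regulatory subunits and the axonal scaffold genes. In thalamus HDAC4CA gave 2 higher and 2 lower of 20 in WT mice, 3 and 2 of 21 in Sik3E13∆/+ mice at ZT12.5, and 2 and 4 of 20 at ZT0.5, where 7.20%, 11.9% and 8.85% of all genes were called. Cntnap2, which clusters voltage-gated potassium channels along axons, was higher by 0.21, 0.29 and 0.32, and the pacemaker channel gene Hcn4 was lower by 0.41, 0.54 and 0.70. In cortex 0, 0 and 1 were higher and 4, 5 and 3 lower of 21, against 6.50%, 10.9% and 4.32% of all genes. Lrrc55, a BK auxiliary subunit, fell by 0.66, 0.69 and 0.51 there and the LGI1 receptor gene Adam23 by 0.52, 0.46 and 0.39. With CREB in thalamus 1 was higher and 1 lower in each genotype (3.41% of all genes in WT mice and 4.39% in Sik3E13∆/+ mice), the higher being the pacemaker channel gene Hcn2 (0.22 and 0.24).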

How the data were processed

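Members and gene lists were chosen with earlier results of these data known. The authors' RPKM (WT mCherry, HDAC4CA and CREB) and FPKM (all other groups) values were used as deposited; per the submitters' processing notes, CASAVA 1.9, STAR 2.6.1a, featureCounts and edgeR 3.28.1 were used with GRCm38. Each deposited table has 49585 rows, of which 26 with symbols turned into dates and 93 repeats were left out. Value times exon length (GENCODE M21, known for 95.4% of genes) came within 0.1 of a whole read for 94.2% to 95.6% of values up to 20 reads.

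Values were rescaled by TMM factors computed on these reads (trims 0.3 and 0.05) and tested with limma 3.58.1 in R 4.3.3 (trend, robust) on log2(value + 0.1), which understates changes of low genes. Genes needed a mean of 10 reads (without a length, a mean value of 1), and p-values were adjusted by the Benjamini-Hochberg method over all genes tested, with calls under 0.05. Printed levels are as deposited. Each fit held only the groups compared, and regional fits had time as a covariate. RPKM and FPKM libraries were never compared. Per comparison, up to 6 members called in each direction were named by size of change, with a mean of at least 1 and groups that did not overlap, and also members called the same way in at least 4 of the 9 HDAC4CA comparisons and the 5 highest per region; members past the test between regions, or named to complete a count, were added after their values were seen. Alternatives were a pseudocount of 1, no filter, no rescaling, voom on the recovered reads, the replicate number as a block, each library left out and, in WT cortex, a term for or removal of the 3 cortex libraries with low ribosomal transcripts (mean log2 under 2.5 over 73 genes). All RPKM libraries of thalamus and hypothalamus are also under 2.5 and were left as they are. Same-numbered libraries deviated together, with every correlation over 0.1 (0.125 to 0.648 for HDAC4CA against mCherry), only in WT cortex. There number 4 marks the libraries with low ribosomal transcripts, and the other numbers deviate from the group mean the opposite way together. The correlations therefore cannot show whether libraries with the other numbers are paired. The blocked count in WT cortex was 18 for HDAC4CA against mCherry and 19 for HDAC4CA against CREB. Some members counted here are not reported by name. The fitting code was tested on simulated data. Sequences are from RefSeq (GRCm38.p6).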

Additional observations from a re-analysis of the deposited data

Results flagged for a closer look

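In 4 of 78 groups of 4 libraries of the genes described by library, 1 library lay far from the other 3, where chance gives about 1 group in 20. Kcnk4 was at 7.85 FPKM in 1 Sik3E13∆/+ HDAC4CA thalamus library at ZT0.5, above the other 3 at 5.48 to 5.78 FPKM. Kcnk2 was at 7.03 FPKM in 1 Sik3E13∆/+ eGFP cortex library at ZT12.5, against 6.57 to 6.59 FPKM in the other 3. Kcnj3 was at 18.5 RPKM in 1 WT mCherry thalamus library, against 17.0 to 17.2 RPKM in the others. Kcnip3 was at 16.3 RPKM in replicate 4 of WT mCherry cortex, 1 of the 3 cortex libraries with low ribosomal transcripts, against 13.0 to 13.5 RPKM in the others.

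The HDAC4CA effect differed between thalamus and cortex of Sik3E13∆/+ mice at ZT12.5, by a test of the difference itself, for 17 members. On the log2 scale, thalamus minus cortex, the differences were 1.83 for Kcnk4, 1.39 for Kcng2, 0.86 for Kcnc2, 0.67 for Kcnab3, 0.53 for Kcnh2, 0.51 for Kcnj12, 0.46 for Kcna2, 0.39 for Kcnk2 and 0.36 for Kcnc1. They were -1.30 for Kcnh1, -0.77 for Kcnip3, -0.77 for Kcna4, -0.65 for Kcng4, -0.58 for Kcnd3, -0.52 for Kcnmb4, -0.46 for Kcnab1 and -0.38 for Kcnk3.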

How the results depend on the processing

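None of the 229 named results changed direction under any alternative run, but the balance of higher and lower calls turned in some counts: without rescaling to 33 and 25 for thalamus against cortex and to 6 and 7 for time in Sik3E13∆/+ thalamus, and for CREB in WT thalamus and HDAC4CA against CREB in Sik3E13∆/+ mice under others. Of the named results, 228 were called and 165 of those stayed called under every alternative; 49 were lost with no filter, 32 with the replicate block and 31 without rescaling. Kcnk4 in thalamus with HDAC4CA kept its call throughout, at 0.91 to 1.23 in WT mice and 1.11 to 1.44 and 1.17 to 1.50 in Sik3E13∆/+ mice at ZT12.5 and ZT0.5. In counts of members called, no filter gave 10 for HDAC4CA against mCherry in WT cortex and 0 in WT hypothalamus, 1 for CREB in WT thalamus, and 17 and 4 for HDAC4CA in Sik3E13∆/+ cortex at ZT12.5 and ZT0.5. It gave 0 and 4 for time in WT and Sik3E13∆/+ cortex, and for HDAC4CA against CREB 5 and 15 in WT cortex and thalamus and 14 and 15 in Sik3E13∆/+ cortex and thalamus. Without rescaling there were 2 for CREB in WT thalamus, 0 and 1 for time in WT and Sik3E13∆/+ cortex, 11 for time in WT thalamus and 8 for HDAC4CA against CREB in WT cortex (1 higher, 7 lower). In thalamus that setting made the split 6 to 21 (WT) and 6 to 15 (Sik3E13∆/+) for HDAC4CA against CREB and 3 to 5 for CREB in Sik3E13∆/+ mice. Voom gave 2 for HDAC4CA in WT hypothalamus, 1 and 1 in Sik3E13∆/+ hypothalamus, 24 in Sik3E13∆/+ cortex at ZT0.5, 13 and 15 for CREB in WT and Sik3E13∆/+ thalamus, 4 for time in WT cortex and 2 for time in Sik3E13∆/+ hypothalamus. With the replicate block there were 0 for HDAC4CA in WT hypothalamus, 1 for CREB in WT thalamus, 7 for HDAC4CA in Sik3E13∆/+ cortex at ZT0.5 and 0 for time in WT cortex. The numbers are shared between groups, and whether they pair libraries is not known. In WT cortex with this block, Kcnip2 and Kcnk4 lost their calls for HDAC4CA and no other named call for a vector changed. In WT cortex without replicate 4 of both groups compared, the libraries with low ribosomal transcripts, the counts were 10 for HDAC4CA against mCherry and 7 against CREB, and with a term for them 22 and 20. The cause of these shifts was not tested.

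Leaving out 1 library at a time gave ranges of 9 to 27, 17 to 22 and 0 to 3 for HDAC4CA in WT cortex, thalamus and hypothalamus. In Sik3E13∆/+ mice they were 17 to 23 and 16 to 20 at ZT12.5, and 7 to 14 and 16 to 22 at ZT0.5, in cortex and thalamus. CREB gave 1 to 5 and 5 to 9 in WT and Sik3E13∆/+ thalamus. Time gave 0 to 1 in WT cortex, 14 to 19 in WT thalamus, 3 to 9, 9 to 13 and 0 to 1 in Sik3E13∆/+ cortex, thalamus and hypothalamus. HDAC4CA against CREB gave 5 to 22 and 17 to 23 in WT cortex and thalamus and 17 to 24 and 16 to 23 in Sik3E13∆/+ cortex and thalamus. Regional counts stayed at 52 to 56, 60 to 65 and 60 to 62, and the difference between regions at 13 to 17. Counts moved by over 1.5 times without mCherry 1 (10), 2 (9), 3 (12) or 4 (10) or HDAC4CA 4 (11) in WT cortex, without eGFP 3 (17) at ZT12.5 or HDAC4CA 2 (7) at ZT0.5 in Sik3E13∆/+ cortex, and, for time, without ZT12.5 replicates 2 (3), 3 (5) or 4 (5) or ZT0.5 replicates 1 (6), 2 (4) or 4 (7) in Sik3E13∆/+ cortex and all but 1 library (0) in WT cortex. HDAC4CA against CREB in WT cortex did so without HDAC4CA 2 (8) or 3 (8) or CREB 1 (8), 2 (6), 3 (5) or 4 (9).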

Other observations

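Kcnk15, a tandem-pore gene below the minimum mean (0.0512 FPKM over all FPKM libraries) and picked out here after its values were seen, was at 0.472 to 0.990 FPKM in Sik3E13∆/+ thalamus with CREB, against 0 to 0.0303 FPKM with eGFP. The log2 difference on the scale of the value plus 0.1 was 2.74 ± 0.22 (SE, adjusted p = 0.000346, limma). In WT thalamus it was at 0.151 to 0.333 RPKM with CREB against 0.0189 to 0.0429 RPKM with mCherry, and in WT cortex at 0.0897 to 0.244 against 0 to 0.0289 RPKM. In both WT tissues the CREB libraries lay above the mCherry libraries, at too few reads to be tested. In hypothalamus no CREB library was above 0.0475 RPKM in WT mice, and all 4 were listed at 0 in Sik3E13∆/+ mice.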
